A study of Mus musculus with 15 samples.

Results

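The collagen genes are the autosomal protein-coding genes of the GENCODE vM1 annotation whose symbol is Col, a number, a and a number, such as Col5a1. There are 41 of them among 21418 autosomal protein-coding genes. Collagens are secreted proteins of long helical chains that give the extracellular matrix its strength. Fibrillar collagens (types I, II, III, V, XI, XXIV and XXVII) build fibrils, the fibril-associated collagens with interrupted helices (FACIT, such as types IX and XII) bind to their surface, network-forming collagens (types IV, VIII and X) build basement membranes and sheets, and others form beaded filaments (type VI), anchoring fibrils (type VII), transmembrane proteins (types XIII, XVII, XXIII and XXV) or the multiplexins (types XV and XVIII). In bone marrow most fibrillar collagen is made by stromal and bone-forming cells, not by blood progenitors. DNA methylation at a CpG-rich promoter usually goes with a silent gene, whereas the bodies of genes are methylated in most cells.

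The assay was reduced representation bisulfite sequencing (RRBS), in which bisulfite converts unmethylated cytosines and the share of unconverted reads at a CpG gives its methylation level in CpG-rich restriction fragments. The 15 libraries came from progenitors of C57BL/6 mice, sorted as granulocyte-macrophage progenitors (GMP) or megakaryocyte-erythroid progenitors (MEP). Wild type cells carried Mx1-cre+;Dnmt3af/f, Dnmt3a knockout cells Mx1-cre+;Dnmt3a-/-, and Idh2 mutant cells Mx1-cre-;Dnmt3af/f;Idh2 R140Q, each with 2 GMP and 2 MEP libraries. The double mutant group, Mx1-cre+;Dnmt3a-/-;Idh2 R140Q, had 3 libraries of malignant haematopoietic stem and progenitor cells (HSPC) sorted with the MEP surface markers, and was compared with MEP of the other genotypes. Mx1-cre is an inducible recombinase that acts in blood and other tissues, and all groups except the Idh2 mutant carried it. Dnmt3a adds new DNA methylation, and Idh2 R140Q makes 2-hydroxyglutarate, which inhibits the enzymes that remove it. The labels call the libraries biological replicates without stating that they were separate animals, so the p-values may measure only the spread between samples, and methylation alone did not check the labelled cell types.

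A CpG was used where each of the 15 libraries covered it with 10 reads or more, which held for 241527 CpGs. Of these, 197 lay within 1 kb of a start site of a collagen gene (promoter CpGs) and 418 elsewhere in a collagen gene (body CpGs). The promoter of a gene pooled the CpGs by all of its start sites, which can lie far apart. With at least 3 such CpGs required, 17 collagen promoters, 32 gene bodies and 85 windows of 1 kb could be tested. In 8 genes, among them Col1a2, Col3a1, Col10a1 and Col11a1, neither promoter nor body could be tested. The 24 promoters not tested included Col1a1, Col1a2, Col3a1, Col4a1 and Col4a2, and Col4a3 and Col4a4, which start next to each other, share the same 5 promoter CpGs. A promoter, body or window was called different where its adjusted p was under 0.05 (quasi-binomial model, adjusted over all features of the class) and its group means differed by at least 10 percentage points. The median depth over the collagen CpGs was 31 to 51 reads per CpG and library. Relative to autosomal reads, wild type libraries held 2.21% to 2.25% as many reads on the X chromosome and the other libraries 1.17% to 1.47%, so differences from wild type cannot be told apart from a difference in sex chromosome content. The share of mitochondrial reads called methylated, which reflects incomplete conversion, ranged from 0.912% to 1.56% among double mutant libraries. Among Idh2 mutant libraries it was 0.280% to 2.43%, among knockout libraries 0.631% to 2.77% and among wild type libraries 1.62% to 3.27%, and its part in the results was not tested.

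Collagen promoters were mostly unmethylated and collagen bodies mostly methylated in normal progenitors. In wild type GMP the 17 promoters ranged from 0.612% to 25.7% with a median of 9.53%, and in wild type MEP from 0.795% to 27.4% with a median of 6.98%. The 32 bodies ranged from 20.8% to 94.8% in wild type GMP, and 24 of them lay above 80%. Of the 197 promoter CpGs, 160 had a wild type mean under 20%, 25 lay between 20% and 80% and 12 above 80%. Body CpGs in exons (150) averaged 83.1% ± 2.57 (SD, n = 2) in wild type MEP, and those in introns (268) averaged 75.5% ± 2.81. Among the bodies, that of Col12a1, a FACIT chain, was low in all groups (13.6% to 37.5%). That of Col8a2, a network-forming chain of the cornea and vessel wall, held 34.2% to 46.1%. The bodies of Col1a1, the main chain of bone and tendon fibrils (44.8% to 67.7%), and Col9a2, a FACIT chain (53.25% to 74.7%), were intermediate.

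The mean over all collagen promoter CpGs was 13.1% in each wild type GMP library and 12.5% in each wild type MEP library. It was 11.2% and 12.5% in knockout GMP, 11.4% and 12.8% in knockout MEP, 13.4% and 16% in Idh2 mutant GMP, and 12.7% and 14.2% in Idh2 mutant MEP. The double mutant libraries had 18.9%, 21.7% and 17.9%, all above the other 12 libraries. Over all protein-coding promoter CpGs the double mutant mean was also the highest of the group means, 8.61% ± 0.489 (SD, n = 3) against 5.08% ± 0.172 (n = 2) in wild type MEP. At the 160 collagen promoter CpGs with a wild type mean under 20%, the double mutant held 9.70% ± 2.11 and the other 6 groups 2.61% to 4.40%. At the 100422 CpGs of all promoters under the same limit, the double mutant held 4.41% ± 0.445 and the other 6 groups 0.936% to 2.02%. Both sets were chosen by their wild type levels, so part of the gap from wild type can come from that choice. The body CpGs moved less, with 82.9% ± 0.980 in the double mutant, 78.2% ± 2.72 in wild type MEP, 80.5% ± 1.85 in knockout MEP and 79.3% ± 1.06 in Idh2 mutant MEP.

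**Figure D1:**
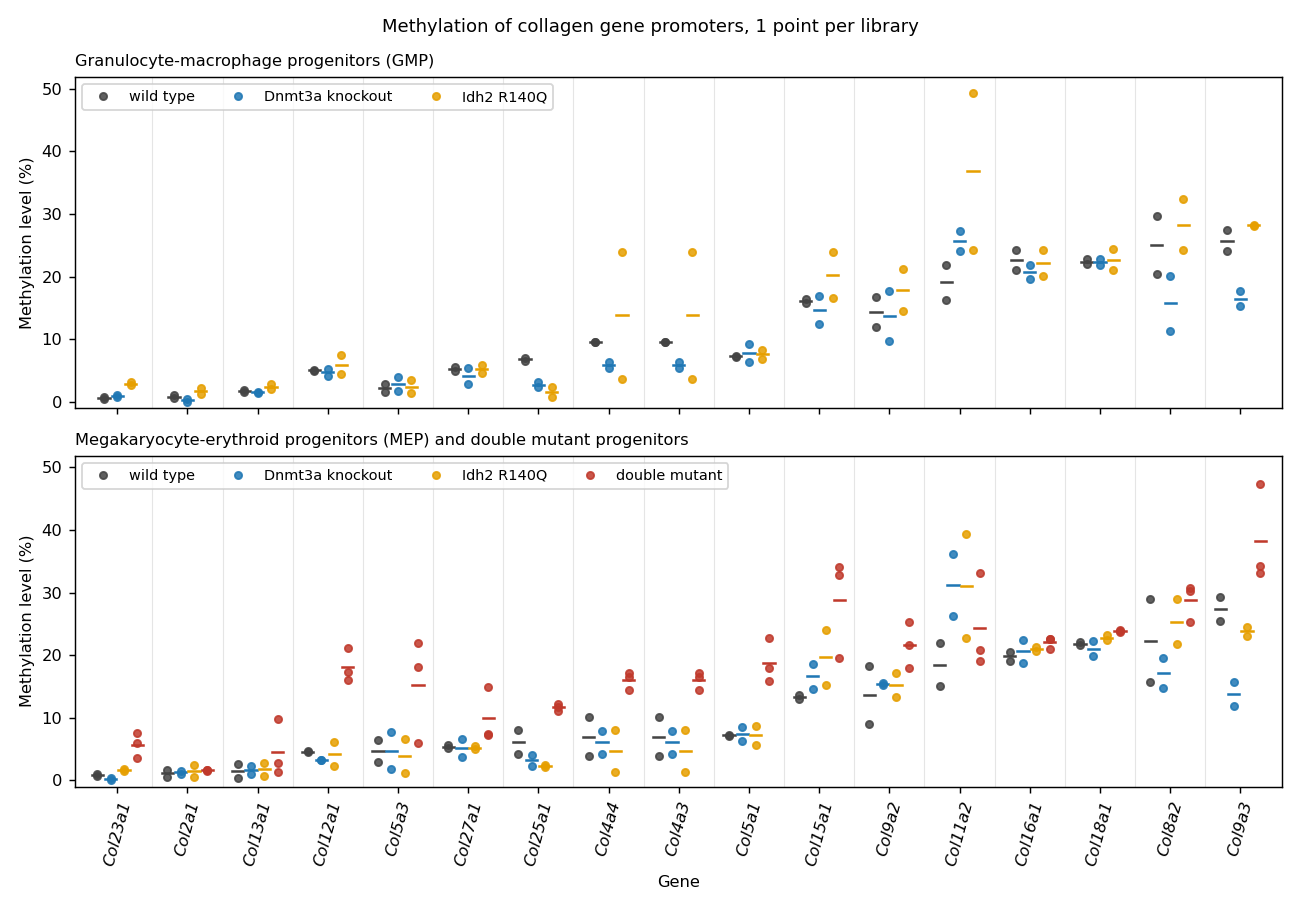
Methylation level (%) of the 17 tested collagen promoters in GMP (top) and in MEP and double mutant cells (bottom), genes ordered by their wild type MEP mean, with 1 point per library and a bar at the group mean. Double mutant points of Col12a1, Col5a1 and Col9a3 lie above all MEP points of the other genotypes, and knockout points of Col9a3 lie below the wild type ones.

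The double mutant was compared first with wild type MEP. Promoters of 4 collagen genes rose, which is 23.5% of the 17 tested beside 11.4% of all promoters called higher, and none fell (0.61% of all promoters called lower). All 17 collagen differences were above 0, against 67.3% of all promoters, and their median was 6.40 points against 0.252 points over all promoters. The 4 that rose were Col5a1, a fibril-forming chain that nucleates collagen fibrils, the FACIT chains Col12a1 and Col9a3, and Col15a1, a multiplexin of the basement membrane zone. The count was 2 without double mutant replicate 2. Against knockout MEP 5 promoters rose (12% of all promoters), the same 4 genes and Col5a3, with none lower (0.407%), and 3 were left without knockout MEP replicate 1 or double mutant replicate 1 and 2 without double mutant replicate 2. Against Idh2 mutant MEP 3 rose (10.3% of all promoters), Col12a1, Col5a1 and Col9a3, with none lower (1.17%). That count was 1 without double mutant replicate 2 and 5 without double mutant replicate 3 or Idh2 mutant MEP replicate 2. The 3 comparisons share the double mutant libraries.

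By family, 2 of the 4 tested FACIT promoters and 1 of the 5 fibrillar were higher in the double mutant than in wild type MEP. None of the 3 network-forming and 1 of the 5 multiplexin and transmembrane promoters were so, beside 11.4% of all promoters. The families are too small to compare with that share. No promoter of a type VI or VII gene could be tested. The family medians of the double mutant were 21.8% for FACIT, 15.3% for fibrillar, 16% for network-forming and 11.7% for multiplexin and transmembrane promoters, beside 16.7%, 5.40%, 6.98% and 6.18% in wild type MEP. Col4a3 and Col4a4 count as separate network-forming promoters but share the same CpGs, and the medians of that family are the level of this shared promoter.

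The Col5a1 promoter held 17.9%, 22.7% and 15.8% in the double mutant libraries, over 15 CpGs with 357 to 780 reads per library. It held 7.31% and 7.16% in wild type MEP, 6.25% and 8.54% in knockout MEP, and 8.72% and 5.72% in Idh2 mutant MEP. The double mutant libraries were all higher than the others, and the GMP libraries of the single genotypes lay between 6.35% and 9.16%. The rises were 11.6 points against wild type MEP (adjusted p = 0.000138, quasi-binomial model), 11.4 against knockout MEP (0.000236) and 11.6 against Idh2 mutant MEP (0.000632). Without double mutant replicate 2 they were 9.63, 9.47 and 9.64 points, under the 10 points required, with adjusted p of 0.000691, 0.00100 and 0.00213. Of the 15 CpGs, 1 lies 131036 bp into the gene, by another start site. It held 95.1% in wild type MEP and 97.1% in the double mutant. The others lie in the first exon or just beyond it, and each held 0 to 3.75% in wild type MEP. The 1 kb window over the first exon rose by 12.3 points against wild type MEP (adjusted p = 7.61e-05, quasi-binomial model). The stretch from the start codon into the first intron (chr2:27742336-27742471, mm9, plus strand) is shown to let the CpGs be seen in their sequence, with the measured CpGs in capitals.
Col5a1 first coding exon: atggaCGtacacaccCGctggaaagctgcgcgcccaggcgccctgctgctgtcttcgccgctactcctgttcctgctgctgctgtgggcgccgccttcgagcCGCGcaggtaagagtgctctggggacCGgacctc
In this stretch the first measured CpG held 22.5% in the double mutant (19.4% to 27.3% over its libraries) and 0 in wild type MEP, whereas the next held 4.99% and 2.03%. Further upstream in the same exon the CpG at position 27742138 held 40.0% in the double mutant, 3.75% in knockout MEP and 0 in wild type and Idh2 mutant MEP. Between these, 4 neighbouring CpGs (27742244 to 27742268) had double mutant means between 0 and 2.92%. The double mutant methylation of this exon was uneven from CpG to CpG.

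The Col12a1 promoter, over 14 CpGs with 391 to 817 reads, held 17.3%, 16% and 21.2% in the double mutant. It held 4.65% and 4.48% in wild type MEP, 3.28% and 3.24% in knockout MEP, and 2.34% and 6.11% in Idh2 mutant MEP. All double mutant libraries were higher than the other libraries, of which the highest was an Idh2 mutant GMP library at 7.44%. The rises were 13.6 points (adjusted p = 1.88e-05, quasi-binomial model), 14.9 (7.02e-06) and 13.9 (5.01e-05) against wild type, knockout and Idh2 mutant MEP. With at least 20 reads per CpG, which left 3 of the 14 CpGs, the adjusted p was 0.196 against wild type MEP and 0.0539 against Idh2 mutant MEP. The 1 kb window over the start of the gene, with 8 CpGs, held 17.6%, 19.5% and 20.2% in the double mutant and 0.278% to 5.07% in the 6 MEP libraries. The neighbouring window upstream of the start held 20.6%, 12.1% and 19.3% in the double mutant and 3.92% to 8.83% in the MEP libraries, and was called against knockout MEP (11 points, adjusted p = 0.00448) and Idh2 mutant MEP (12 points, 0.00404). Against knockout MEP it ended without double mutant replicate 1 (9.31 points) or 3 (9.99 points) or knockout MEP replicate 1 (8.98 points), and against Idh2 mutant MEP with a minimum of 20 reads (adjusted p = 0.0543). An intron window 4280 bp into the gene held 20.4% ± 5.84 in the double mutant and 2.48% ± 1.10 in wild type MEP (adjusted p = 0.00412).

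The Col9a3 promoter differed in both the knockout and the double mutant, in opposite directions. Col9a3 encodes a chain of type IX collagen, which coats the fibrils of cartilage. Its 12 promoter CpGs held 24.0% and 27.4% in wild type GMP, 25.5% and 29.2% in wild type MEP, 15.2% and 17.7% in knockout GMP, and 11.9% and 15.7% in knockout MEP. All knockout libraries were lower than all wild type libraries. Idh2 mutant libraries held 28.3% and 28.1% in GMP and 24.6% and 23.1% in MEP, and the double mutant held 34.3%, 47.3% and 33.1%, above all the others. Over both cell types the knockout mean was 15.1% ± 2.38 against 26.6% ± 2.27 in wild type (SD, n = 4 each, fell by 11.4 points, adjusted p = 0.0334, quasi-binomial model). This was the 1 collagen promoter called in the knockout, 5.88% of 17 beside 0.261% of all promoters called lower, and none was higher (0.0871%). Of the 8 libraries compared, the knockout call held only when knockout MEP replicate 2 was the one omitted. Omitting a wild type library gave adjusted p of 0.108 (GMP replicate 1), 0.172 (GMP replicate 2), 0.0528 (MEP replicate 1) and 0.163 (MEP replicate 2). Omitting a knockout library gave 0.0894 (GMP replicate 1), 0.0651 (GMP replicate 2) and 0.191 (MEP replicate 1). The call also ended with limma (0.0648) and when the GMP and MEP libraries that share a title prefix were summed (0.164). The double mutant lay 24.5 points above knockout MEP (adjusted p = 3.16e-05), 14.4 above Idh2 mutant MEP (0.00529) and 10.9 above wild type MEP (0.0256). Against wild type MEP the call ended without double mutant replicate 2 (6.36 points, adjusted p = 0.207), wild type MEP replicate 1 (0.181) or 2 (0.0546), at 20 reads per CpG (0.138), with limma (0.107) and with only the compared groups fitted (0.0660). Against Idh2 mutant MEP it ended without double mutant replicate 2 (9.89 points) or Idh2 mutant MEP replicate 2 (adjusted p = 0.0608).

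The Col9a3 CpGs differed among themselves, and the stretch that holds 8 of the 12, from the end of an exon into the next intron (chr2:180333016-180333215, mm9, plus strand), is shown with the measured CpGs in capitals.
Col9a3 intron by the start: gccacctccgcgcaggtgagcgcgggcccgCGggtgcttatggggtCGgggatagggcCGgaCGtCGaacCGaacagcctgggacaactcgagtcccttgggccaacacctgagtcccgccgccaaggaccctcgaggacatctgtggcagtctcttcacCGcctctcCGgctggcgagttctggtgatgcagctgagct
The first CpG held 3.54% in wild type MEP, 3.58% in knockout MEP, 5.88% in Idh2 mutant MEP and 40.1% in the double mutant (29.2% to 48.3% over its libraries). The last held 60.2% in wild type MEP, 32.4% in knockout MEP, 69.9% in Idh2 mutant MEP and 73.7% in the double mutant. The one before it held 78.8%, 51.0%, 68.9% and 52.2% in the same order. The sixth held 48.7% in the double mutant (34.6% to 74.4%) and 4.65% to 15.1% in the 3 MEP groups, whereas at the fourth the double mutant (16.1%) lay below wild type MEP (22%). Thus the double mutant was high at some CpGs that were low elsewhere, and at the second last CpG it lay near the knockout mean.

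Other promoters moved less or less evenly. The Col15a1 promoter held 34.1%, 32.8% and 19.5% in the double mutant, 13.0% and 13.7% in wild type MEP, and 14.6% and 18.6% in knockout MEP. It rose by 15.5 points against wild type MEP (adjusted p = 0.00468) and 12.2 against knockout MEP (0.0257). The call against knockout MEP ended without knockout MEP replicate 1 (0.201) or double mutant replicate 1 (9.51 points, 0.119) or 2 (0.0874), and with only the compared groups fitted (0.0509). In Idh2 mutant MEP the Col15a1 libraries held 15.3% and 24.0%, which overlaps the lowest double mutant library. The promoter of Col5a3, another type V chain, held 18.1%, 21.9% and 5.95% in the double mutant over 4 CpGs, and its lowest library lay within the range of 1.84% and 7.67% in knockout MEP. Its call against knockout MEP (10.6 points, adjusted p = 0.0461) ended without knockout MEP replicate 1 (0.339) or double mutant replicates 1 (0.193) or 2 (0.160), and with only the compared groups fitted (0.0804).

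Some promoters passed the adjusted p with a difference under 10 points. The promoter of Col25a1, a transmembrane collagen of nerve cells, held 11.1%, 11.7% and 12.2% in the double mutant, 4.25% and 8.10% in wild type MEP, 2.34% and 4.07% in knockout MEP, and 2.21% and 2.38% in Idh2 mutant MEP. Its double mutant libraries were the highest 3 of 15, and its Idh2 mutant libraries lay below wild type in both cell types (1.94% ± 0.800 against 6.49% ± 1.62, SD, n = 4 each, adjusted p = 0.0402). The knockout libraries also lay below all wild type libraries (2.97% ± 0.804, n = 4, adjusted p = 0.232, quasi-binomial model). This promoter rests on 4 CpGs. The Col23a1 promoter, with 22 CpGs, held 5.94%, 3.65% and 7.59% in the double mutant and 0.624% and 0.965% in wild type MEP (adjusted p = 0.000295). The shared promoter of Col4a3 and Col4a4, basement membrane chains of the kidney, held 16.4%, 17.2% and 14.4% in the double mutant against 4.21% and 7.94% in knockout MEP, a difference of 9.95 points (adjusted p = 0.0498).

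The other promoters with a wild type mean of at least 20% were not called. Besides Col9a3, these were Col8a2 (23.7%), Col18a1 (22.1%) and Col16a1 (21.2%). These 3 genes have 3, 5 and 8 start sites, and their CpGs were pooled over them. Such a mean can mix low and high start regions and need not be the level of any 1 start. Col18a1, the source of the fragment endostatin, held 24.1%, 23.9% and 23.7% in the double mutant and 22.1% and 21.6% in wild type MEP. Col16a1, a FACIT chain, held 22.6%, 22.6% and 20.9% against 20.4% and 19.1%. The Col8a2 promoter held 30.7%, 30.2% and 25.3% in the double mutant against 14.7% and 19.5% in knockout MEP (11.6 points, adjusted p = 0.0687). It had a knockout mean of 16.4% ± 4.21 and a wild type mean of 23.7% ± 6.75 with overlapping libraries (SD, n = 4 each, adjusted p = 0.404). For Col2a1, the cartilage fibril chain, all 15 libraries lay between 0 and 2.45%.

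**Figure D2:**
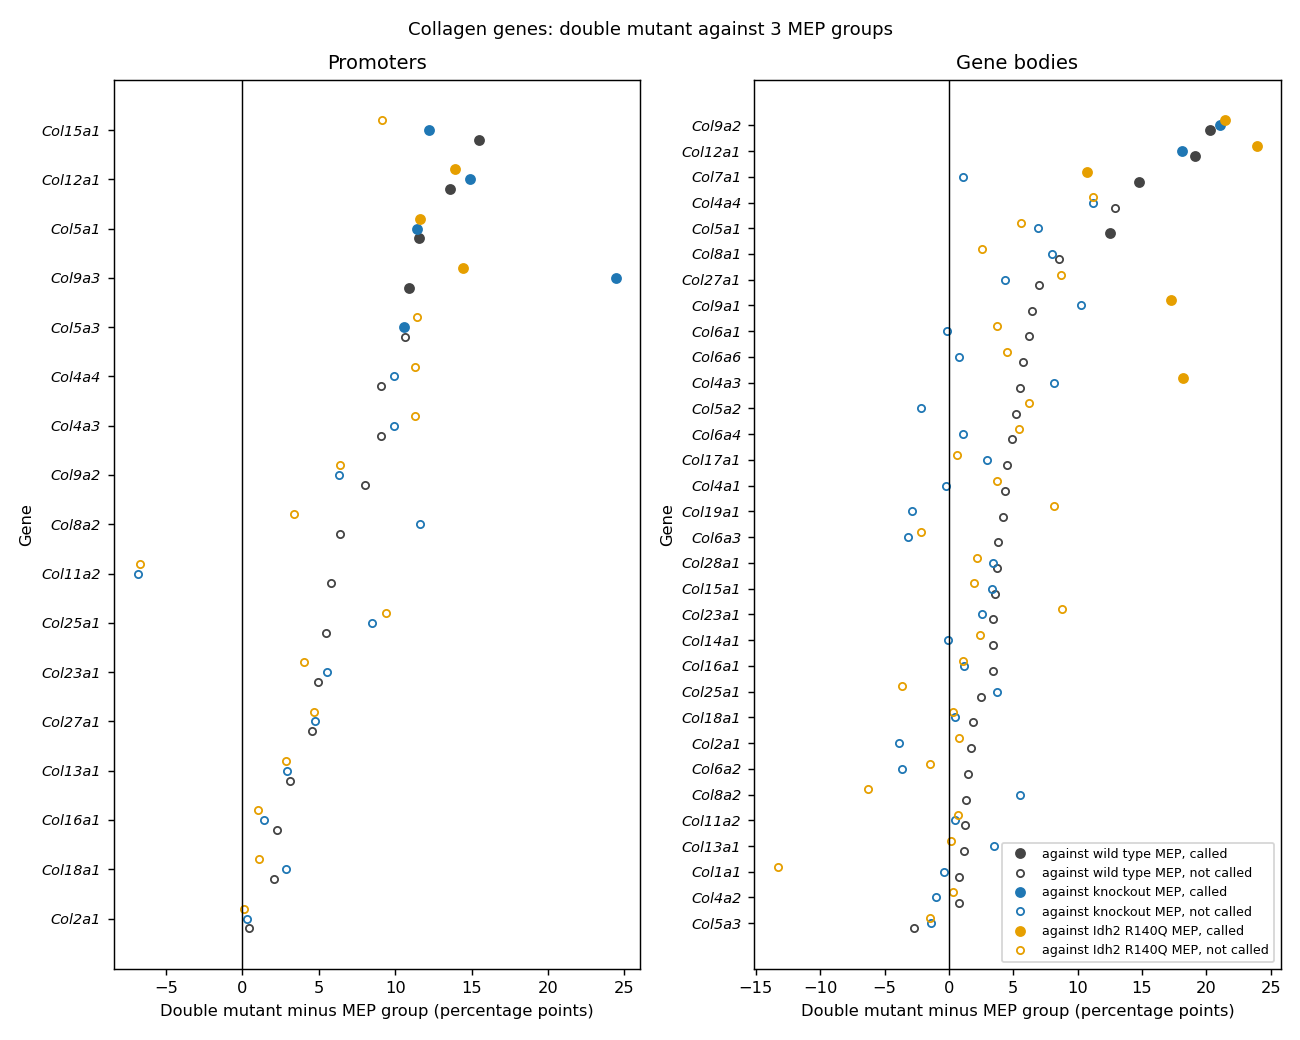
Difference in methylation (percentage points) between the double mutant mean and the mean of each MEP group for 17 promoters (left) and 32 bodies (right), with filled circles for called differences. All promoter differences from wild type MEP lie above 0, and Col9a2 and Col12a1 have the largest body differences from wild type MEP.

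In Idh2 mutant cells no collagen promoter was called (quasi-binomial model, 0 with limma), beside 0.804% of all promoters called higher and 0.116% lower. At an unadjusted p under 0.05 there were 3 of 17, beside 17.2% of all promoters. The largest difference was at Col11a2, a fibrillar chain of cartilage. Its promoter held 24.3% and 49.4% in Idh2 mutant GMP, 22.8% and 39.3% in Idh2 mutant MEP, and 15.2% to 21.9% in the 4 wild type libraries (15.1 points, adjusted p = 0.130). The knockout libraries of Col11a2 lay between 24.1% and 36.2%, also above wild type (9.63 points, adjusted p = 0.423). The Col15a1 promoter was 5.23 points higher in Idh2 mutant cells with overlapping libraries (adjusted p = 0.332).

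Gene bodies were examined in the same comparisons. In the double mutant 4 bodies were higher than in wild type MEP (12.5% of 32, beside 12.9% of all bodies), namely Col5a1, Col7a1, Col9a2 and Col12a1. Against knockout MEP 2 were higher (6.25% of 32, beside 9.73% of all bodies), Col9a2 and Col12a1, with 0 on omitting replicate 1 of knockout MEP, 4 on omitting its replicate 2 and 1 on omitting double mutant replicate 2. Against Idh2 mutant MEP 5 were higher (15.6% of 32, beside 9.1% of all bodies), Col4a3, Col7a1, Col9a1, Col9a2 and Col12a1, with 2 without Idh2 mutant MEP replicate 2. No body was lower in the double mutant, where 2.11%, 1.75% and 4.7% of all bodies were called lower in the 3 comparisons. The median collagen difference from wild type MEP was 4.0 points against 3.60 over all bodies.

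**Figure D3:**
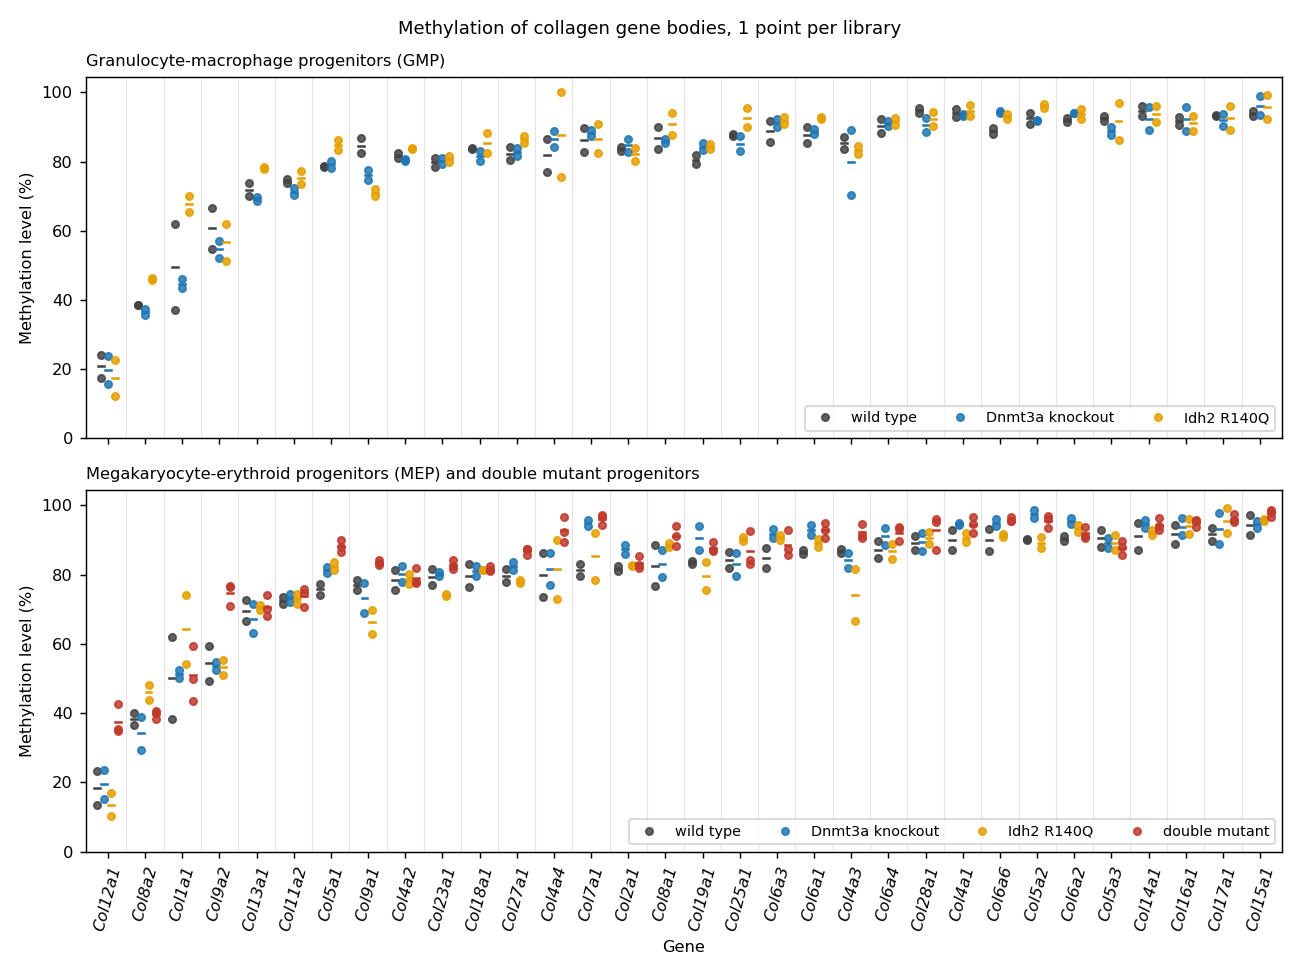
Methylation level (%) of the 32 tested collagen gene bodies in GMP (top) and in MEP and double mutant cells (bottom), genes ordered by their wild type MEP mean, with 1 point per library and a bar at the group mean. Most bodies lie above 80% in all groups, and the double mutant points of Col12a1 and Col9a2 stand above the MEP points.

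The body of Col9a2, another type IX chain, held 76.5%, 76.6% and 71.0% in the double mutant. It held 49.4% and 59.5% in wild type MEP, 52.5% and 54.7% in knockout MEP, and 55.4% and 51.1% in Idh2 mutant MEP. The double mutant was higher in all 3 libraries, by 20.3 points (adjusted p = 0.00196, quasi-binomial model), 21.1 (0.00760) and 21.4 (0.00331) against wild type, knockout and Idh2 mutant MEP. The call against knockout MEP ended without knockout MEP replicate 1 (adjusted p = 0.0866), and that against Idh2 mutant MEP with a minimum of 20 reads (0.0526) or on omitting its replicate 2 (0.0631). The difference lay in 1 window of 3 CpGs 13222 bp into the gene. There the double mutant held 72.7%, 66% and 66.1%, and the 12 other libraries 10.4% to 38.1%. The 3 other body CpGs held 81.1% ± 5.73 in the double mutant, below the 86.9% ± 5.11 of wild type MEP. In this window the double mutant lay 46.3, 51.1 and 53.0 points above wild type, knockout and Idh2 mutant MEP (adjusted p = 9.5e-05, 0.000213 and 0.000123). The stretch with the first 2 of these CpGs, in an intron and in exon 25 (chr4:120725030-120725329, mm9, plus strand), is shown because it holds one of the largest changes among the collagen genes, with the measured CpGs in capitals.
Col9a2 exon 25: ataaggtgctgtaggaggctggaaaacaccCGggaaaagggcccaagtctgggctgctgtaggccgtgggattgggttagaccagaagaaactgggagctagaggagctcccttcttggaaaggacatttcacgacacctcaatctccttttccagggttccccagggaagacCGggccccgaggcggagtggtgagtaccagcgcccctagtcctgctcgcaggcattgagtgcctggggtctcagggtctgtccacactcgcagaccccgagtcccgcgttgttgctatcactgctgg
The exonic CpG held 92.7% in the double mutant (88.8% to 98.5%), 27.2% in wild type MEP, 5.78% in knockout MEP and 17.3% in Idh2 mutant MEP. The intronic one held 83.1% in the double mutant and 24.7% to 35.4% in the MEP groups, and the CpG beyond the printed stretch 28.9% against 3.36% to 12.7%.

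The body of Col12a1, with 4 CpGs, held 34.7%, 42.5% and 35.3% in the double mutant against 13.6% to 23.2% in wild type MEP, 15.2% to 23.6% in knockout MEP and 10.3% to 16.9% in Idh2 mutant MEP. The differences were 19.1 points (adjusted p = 0.00922), 18.1 (0.0265) and 23.9 (0.00534). Leaving out wild type MEP replicate 2 (0.0898) or pooling reads over CpGs (0.0723) ended the first call, knockout MEP replicate 1 (0.313) or double mutant replicate 2 (0.0862) the second, and a minimum of 20 reads per CpG (0.0812) the third. With limma the adjusted p was 0.0830 against knockout MEP and 0.0693 against Idh2 mutant MEP. The 3 body CpGs of the intron window held 20.4% in the double mutant and 2.48%, 4.77% and 6.85% in wild type, knockout and Idh2 mutant MEP. The 1 other CpG held 88.8% against 66.2%, 63.3% and 33.9%, so it bears much on the difference from Idh2 mutant MEP. The body of Col7a1, the anchoring fibril collagen of skin, held 97.2%, 94.5% and 96.5% in the double mutant, 95.8% and 94.1% in knockout MEP, 79.6% and 83.0% in wild type MEP, and 92.1% and 78.6% in Idh2 mutant MEP. Here knockout MEP and the double mutant overlapped, and the double mutant was higher than wild type MEP by 14.8 points (adjusted p = 0.00193). The rise against Idh2 mutant MEP (10.7 points, adjusted p = 0.00768) was 3.97 points (0.370) without Idh2 mutant MEP replicate 2, and 8.10 points (0.0183) at 20 reads per CpG.

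The body of Col9a1, the remaining type IX chain, was the 1 collagen body called in Idh2 mutant cells, and it was lower (3.12% of 32, beside 0.371% of all bodies). It held 70.1% and 72.0% in Idh2 mutant GMP and 62.7% and 69.8% in Idh2 mutant MEP, against 86.7% and 82.5% in wild type GMP and 78.5% and 75.6% in wild type MEP. All 4 Idh2 mutant libraries were lower than all 4 wild type libraries (fell by 12.2 points, adjusted p = 0.0217). The double mutant held 84.3%, 83.5% and 82.8%, 17.2 points above Idh2 mutant MEP (adjusted p = 0.00478, and 0.0801 with reads pooled over CpGs). The call of the Idh2 mutant against wild type ended without wild type GMP replicate 1 (adjusted p = 0.0709), wild type MEP replicate 1 (0.0510), Idh2 mutant GMP replicate 1 (0.0612) or 2 (0.0885), or Idh2 mutant MEP replicate 1 (0.0524). It also ended with limma (0.0633), with pooled reads (0.0576) and with only the compared groups fitted (0.0606). It rests on 4 CpGs with 73 to 252 reads per library. No collagen body was called higher in Idh2 mutant cells (quasi-binomial model, 4.64% of all bodies). The body of Col8a2 passed the adjusted p with 7.58 points (46.0% ± 1.86 against 38.5% ± 1.45, SD, n = 4 each, 0.0349), and that of Col5a1 with 6.5 points (0.00765). The body of Col1a1 was 16.1 points higher in the Idh2 mutant with overlapping libraries (adjusted p = 0.140). The body of Col4a3 was 18.2 points higher in the double mutant than in Idh2 mutant MEP (adjusted p = 0.00700), and 10.7 points (0.232) without Idh2 mutant MEP replicate 2.

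In the knockout no collagen body was called (quasi-binomial model, 0 with limma), beside 0.638% of all bodies higher and 0.86% lower. At an unadjusted p under 0.05 there were 10 of 32, beside 16.7% of all bodies. The largest values were Col7a1 at 7.89 points above wild type (adjusted p = 0.0981), Col9a1 at -6.13 points (0.281) and Col19a1 at 5.40 above (0.163). Col6a6, a type VI chain, passed the adjusted p with 5.25 points (94.7% ± 0.976 against 89.4% ± 2.75, SD, n = 4 each, 0.0371).

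The 85 windows of 1 kb placed the changes within the genes. Against wild type MEP 13 were higher and 1 lower in the double mutant (13.0% and 2.22% of all windows), against knockout MEP 10 and 1 (11.9% and 1.78%), and against Idh2 mutant MEP 12 and 2 (11.1% and 3.62%). The total was 7 against knockout MEP without its replicate 1, and 6 against Idh2 mutant MEP without double mutant replicate 2. Of the 13 higher than wild type MEP, 3 were among 23 promoter windows, 5 among 31 exon windows and 5 among 31 intron windows. In all, 22 of the 85 windows were called in at least 1 of these comparisons and 5 in all 3, which share the double mutant libraries. The shares of all windows were not computed for these counts or by place, so they do not set collagen genes apart. The 5 called in all 3 were the windows over the starts of Col12a1 and Col5a1, an exon window of Col5a1 and the Col9a2 window (all higher). The fifth was an intron window of Col13a1 (lower).

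The Col5a1 exon window lies over exon 2, where the Idh2 mutant was also high. It held 66.7%, 72.2% and 70.0% in the double mutant, 44.6% and 45.7% in Idh2 mutant MEP, and 33.1% and 70.5% in Idh2 mutant GMP. The 4 wild type libraries held 5.18% to 13.2% and the 4 knockout libraries 2.56% to 13.9%, so groups with Idh2 R140Q did not overlap those without it. The double mutant lay 60.1 points above wild type MEP (adjusted p = 5.85e-06, quasi-binomial model) and 61.4 above knockout MEP (1.57e-05). It lay 24.5 points above Idh2 mutant MEP (adjusted p = 0.0461), a call that ended without any 1 of double mutant replicates 1 (0.0617), 2 (0.106) and 3 (0.0789) and Idh2 mutant MEP replicates 1 (0.136) and 2 (0.184), with pooled reads (0.112) and with limma (0.129). The Idh2 mutant mean over both cell types was 48.5% ± 15.7 against 7.87% ± 3.66 in wild type (SD, n = 4 each, 40.6 points, adjusted p = 0.000498). This was the 1 collagen window called higher in the Idh2 mutant, beside 2.84% of all windows. Its GMP and MEP libraries entered the fit as independent samples, and the window was not tested with libraries of 1 title prefix summed. The stretch (chr2:27777609-27777814, mm9, plus strand) holds the end of exon 2 and the start of the next intron, with the 3 measured CpGs in capitals.
Col5a1 exon 2: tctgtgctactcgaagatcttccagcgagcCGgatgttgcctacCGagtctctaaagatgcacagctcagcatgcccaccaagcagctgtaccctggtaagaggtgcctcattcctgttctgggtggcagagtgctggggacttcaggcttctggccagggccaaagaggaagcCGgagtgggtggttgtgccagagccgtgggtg
The first exonic CpG held 79.5% in the double mutant and 71.3% in Idh2 mutant MEP, beside 16.5% in wild type MEP and 13.4% in knockout MEP. The second held 54.0% and 42.6%, beside 8.49% and 5.95%. The intronic CpG held 75.3% in the double mutant (59.4% to 96.1%) and 21.5% in Idh2 mutant MEP, beside 3.52% and 5.43%. So the 2 exonic CpGs of the double mutant lay near the Idh2 mutant means, and the gap between the 2 groups was widest at the intronic CpG. The other 22 body CpGs of Col5a1 held 90.8% ± 1.93 in the double mutant and 84.8% ± 3.29 in wild type MEP. With the window included, the called body held 88.2% ± 1.84 and 75.8% ± 2.26. Among the 22, the CpGs 120636 and 120651 bp into the gene went down, to 47.3% each in the double mutant from 91.5% and 84.4% in wild type MEP.

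**Figure D4:**
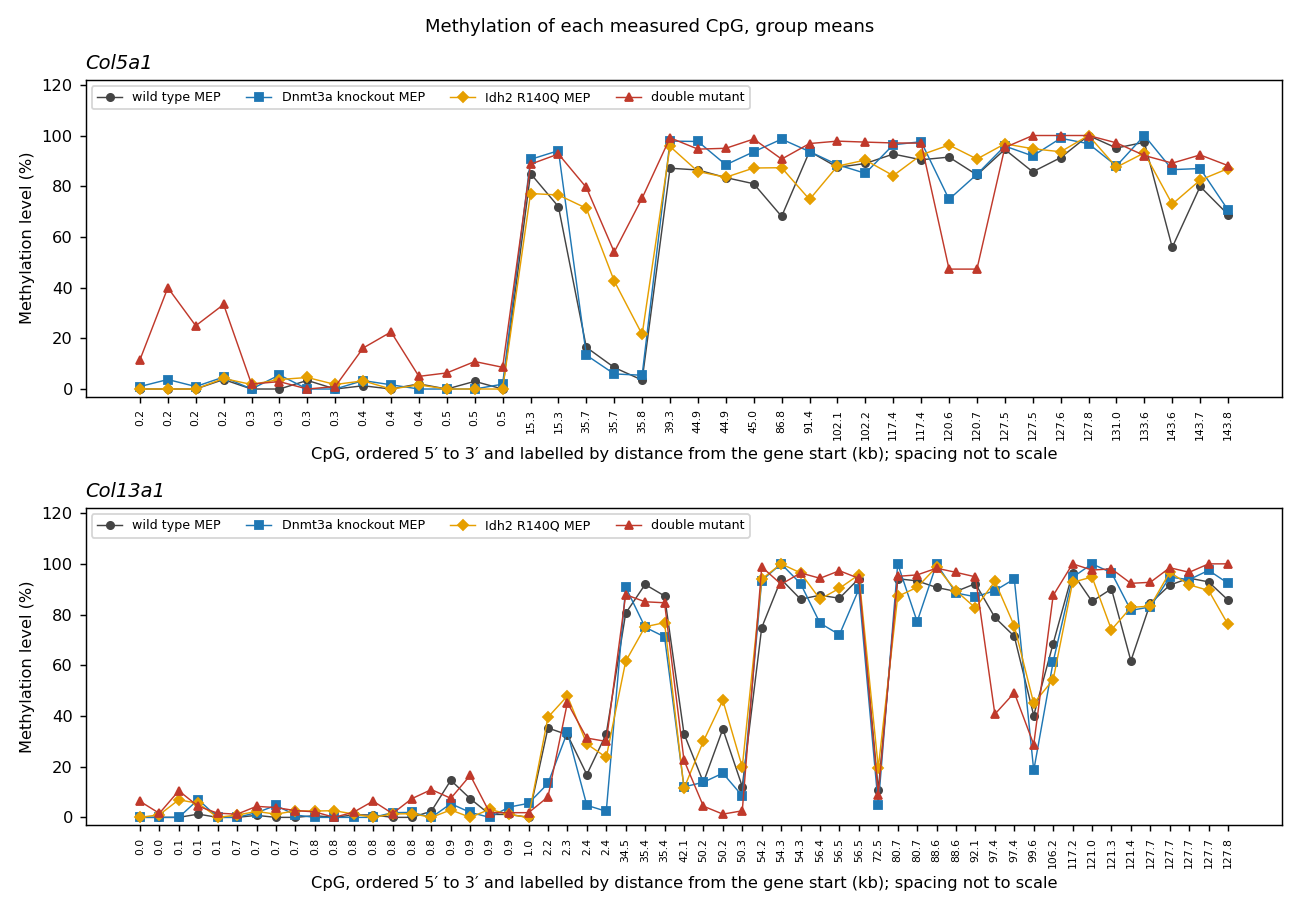
Methylation level (%) of each measured CpG of Col5a1 (top) and Col13a1 (bottom), ordered 5′ to 3′, with lines joining group means of the MEP groups and the double mutant, and spacing not to scale. In Col5a1 the 3 CpGs of the exon 2 window separate the double mutant and Idh2 mutant from the rest, and in Col13a1 the double mutant is near 0 at 3 intron CpGs.

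Col13a1 encodes a transmembrane collagen of muscle and nerve contacts, and its intron window was the 1 collagen window that fell against all 3 MEP groups. It held 4.75%, 2.47% and 1.06% in the double mutant, 19.5% and 21.1% in wild type MEP, 12.8% and 13.7% in knockout MEP, and 36.6% and 27.4% in Idh2 mutant MEP. In GMP it held 28.2% and 31.7% in wild type, 10.7% and 8.26% in knockout, and 36.4% and 42.1% in Idh2 mutant cells. The order of the genotypes was the same in GMP and MEP, with knockout below wild type and wild type below the Idh2 mutant, and no libraries overlapped within a cell type. The double mutant fell by 17.5 points against wild type MEP (adjusted p = 4.13e-05, quasi-binomial model), by 10.5 against knockout MEP (0.00482) and by 29.3 against Idh2 mutant MEP (1.51e-05). Against knockout MEP the difference was under the 10 points required without double mutant replicate 3 (fell by 9.64 points, 0.0167) and with reads pooled over CpGs (fell by 8.66 points, 0.0223). The knockout fell from 25.1% ± 5.80 to 11.4% ± 2.43 over both cell types (SD, n = 4 each, adjusted p = 0.0225), the 1 collagen window called in the knockout (0.899% of all windows lower, 0.451% higher). The knockout call ended with limma (adjusted p = 0.102), with pooled reads (0.0618) and on omitting any of 6 libraries. These were GMP replicates 1 (0.0543) and 2 (0.0792) and MEP replicate 2 (0.0672) of wild type, and GMP replicates 1 (0.0690) and 2 (0.106) and MEP replicate 1 (0.104) of the knockout. The window lies 50227 bp into the gene, and the stretch (chr10:61391526-61391733, mm9, minus strand) is shown with its 3 measured CpGs in capitals.
Col13a1 intron: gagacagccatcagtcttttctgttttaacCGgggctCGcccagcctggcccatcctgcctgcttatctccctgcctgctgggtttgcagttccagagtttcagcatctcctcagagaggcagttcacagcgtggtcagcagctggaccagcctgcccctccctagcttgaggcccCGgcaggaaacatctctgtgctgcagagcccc
From left to right the double mutant held 4.41%, 1.28% and 2.59% at these CpGs, wild type MEP 13.8%, 34.9% and 12.1%, and Idh2 mutant MEP 30.0%, 46.2% and 19.8%. All 3 CpGs were thus low in the double mutant. The whole Col13a1 body, with 36 CpGs, differed little (70.8% ± 3.21 in the double mutant, 69.6% ± 4.26 in wild type MEP).

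The other called windows of Col13a1 went up. The window 121239 bp into the gene held 96.0% ± 2.81 in the double mutant, 79.0% ± 3.81 in wild type MEP (adjusted p = 0.000536) and 83.9% ± 5.58 in Idh2 mutant MEP (0.0125). Against Idh2 mutant MEP the adjusted p was 0.0512 without double mutant replicate 2 and 0.0887 without Idh2 mutant MEP replicate 1. In knockout MEP it held 93.9% and 91.6%, which overlaps the double mutant range of 92.9% to 98.5%. A window 127783 bp into the gene rose by 10.1 points against Idh2 mutant MEP (adjusted p = 0.0120), and by 9.61 points without double mutant replicate 3, 8.17 points without Idh2 mutant MEP replicate 1 and 8.55 points with pooled reads.

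Col23a1, another transmembrane collagen, had the 1 collagen window called lower in the Idh2 mutant (0.513% of all windows) and a window called lower in the double mutant. The first, 46876 bp into the gene, held 66.3% and 93.5% in Idh2 mutant GMP and 63.9% and 83.0% in Idh2 mutant MEP, against 86.8% to 95.8% in the 4 wild type libraries. Replicate 1 was low in both cell types and replicate 2 of GMP lay within the wild type range (fell by 15.7 points, adjusted p = 0.0320). The call ended without Idh2 mutant GMP replicate 1 (0.435), Idh2 mutant MEP replicate 1 (0.167), wild type GMP replicates 1 (0.0753) or 2 (0.107) or wild type MEP replicate 2 (0.0874). It also ended with limma (0.0771), with pooled reads (0.0545) and with only the compared groups fitted (0.0814). The stretch (chr11:51150206-51150392, mm9, plus strand) is shown because its 3 measured CpGs, in capitals, behaved differently.
Col23a1 intron: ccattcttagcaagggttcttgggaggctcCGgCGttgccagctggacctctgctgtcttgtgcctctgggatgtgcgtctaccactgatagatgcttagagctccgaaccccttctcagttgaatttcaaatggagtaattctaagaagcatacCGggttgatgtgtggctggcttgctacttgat
The first CpG had 7 group means of 94.6% or more. The second held 93.9% in wild type MEP, 68.7% in Idh2 mutant MEP and 97.5% in the double mutant. The last held 80.8% in wild type MEP, 81.5% in knockout MEP, 51.7% in Idh2 mutant MEP and 42.0% in the double mutant (38.1% to 45.1%). So the Idh2 mutant was lower at the second and the last CpG, and the double mutant only at the last of these 3. The second Col23a1 window, 180643 bp into the gene, held 32.9%, 17.2% and 27.6% in the double mutant and 50.3% and 55.9% in Idh2 mutant MEP, where the double mutant fell by 27.2 points (adjusted p = 0.0210). The call ended without double mutant replicate 2 (0.109) or Idh2 mutant MEP replicate 2 (0.127), and wild type MEP held 50.1% and 32.0%.

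**Figure D5:**
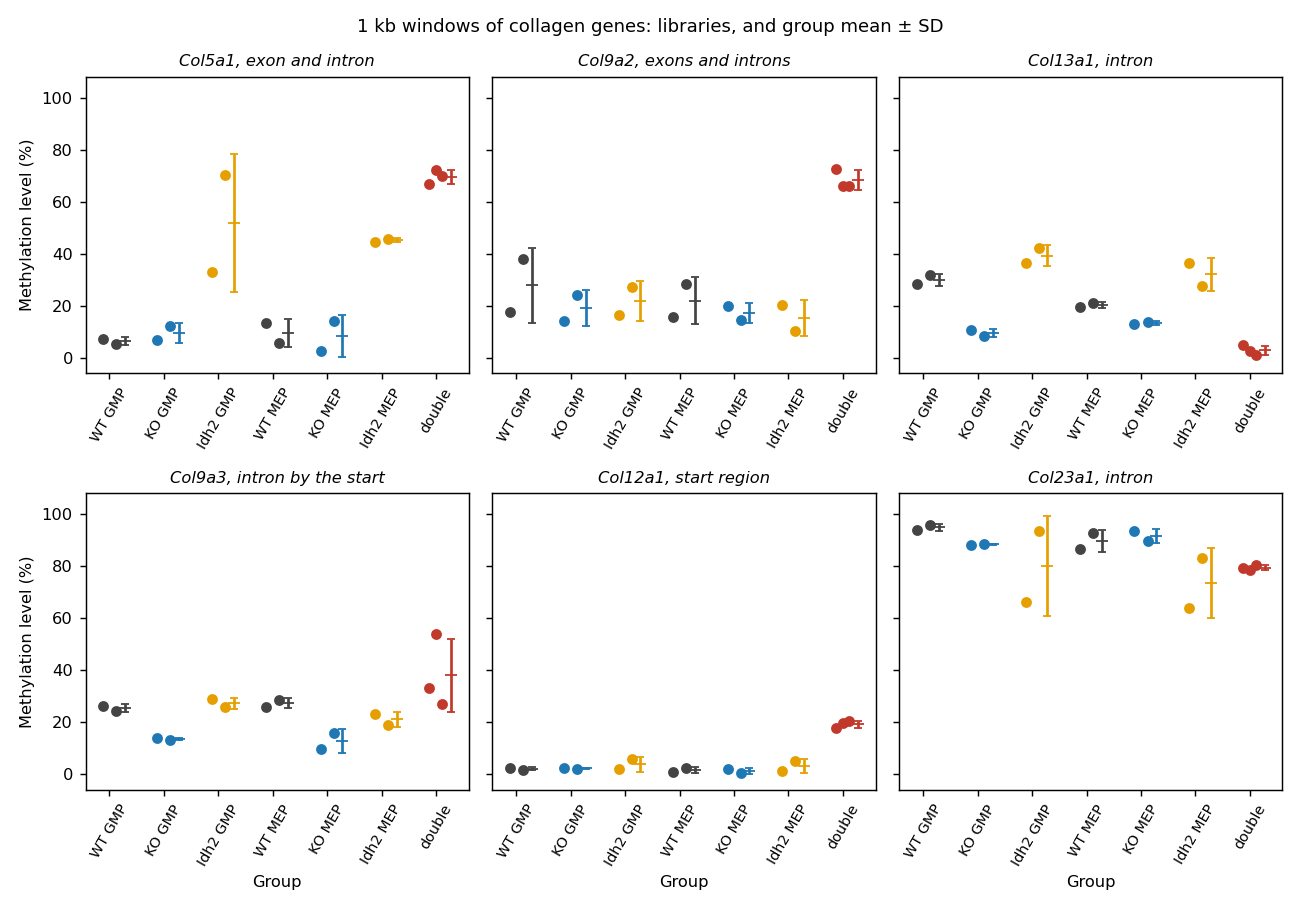
Methylation level (%) of 6 windows of 1 kb in the 7 groups, with 1 point per library and the group mean ± SD to its right. Double mutant points stand apart upward in Col9a2 and Col12a1 and downward in Col13a1, and both Idh2 mutant groups are raised in Col5a1.

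Several called windows were already above 68% in wild type MEP. In the double mutant, intron windows of Col5a1 rose to 96.1% ± 1.33 from 83.6% ± 1.72 in wild type MEP (adjusted p = 0.00224) and to 89.9% ± 0.577 from 68.2% ± 4.99 (0.00307). Exon windows of Col18a1 (15.6 points, adjusted p = 0.0141), Col2a1 (14.7, 0.00884) and Col6a1 (10.9, 0.00139) and an intron window of Col19a1 (16.5, 0.0268) rose against wild type MEP as well. Col18a1 lost its call without wild type MEP replicate 2 (0.154), Col2a1 without wild type MEP replicate 1 (0.0541), Col6a1 without wild type MEP replicate 1 (7.40 points), and Col19a1 without wild type MEP replicate 2 (0.227) or double mutant replicate 1 (0.0702) or 3 (0.0870). In the windows of these 4 genes knockout MEP also had higher means than wild type MEP (91.7%, 98.4%, 90.8% and 88.8%). Against Idh2 mutant MEP, intron windows of Col4a1 (12.2 points, adjusted p = 0.0205) and Col6a6 (10.1 points, 0.0396) rose. The Col4a1 call ended without double mutant replicate 2 (0.0758) or Idh2 mutant MEP replicate 1 (0.0716) or 2 (0.0944), and the Col6a6 call without double mutant replicate 1 (0.113) or 2 (0.129) or Idh2 mutant MEP replicate 1 (0.164) or with pooled reads (9.87 points). Fitting only the compared groups ended both (0.0550 for Col4a1 and 0.0534 for Col6a6). A window 2325 bp into Col27a1, a fibrillar collagen, held promoter CpGs, within 1 kb of the start site used, and counted as a promoter window. It rose from 12.8% ± 3.63 in knockout MEP to 25.1% ± 3.79 (adjusted p = 0.00269). The rise was 9.71 points without knockout MEP replicate 2, 8.37 points with pooled reads and 0.119 points at 20 reads per CpG.

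Col1a1, whose promoter could not be tested, had 1 window, over exons 13 and 14. It held 65%, 51.6%, 68.6% and 42.1% in the Idh2 mutant, and 19.9%, 51.0%, 18.7% and 53.4% in wild type libraries. The wild type libraries differed by replicate number in both cell types, and the difference of 21.1 points was not called (adjusted p = 0.244, quasi-binomial model).

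MEP and GMP did not differ at any collagen feature by the rule used. Over wild type, knockout and Idh2 mutant cells, no promoter, body or window was called with the quasi-binomial model or with limma, beside 0.0678%, 0.682% and 0.407% of all promoters, bodies and windows. At an unadjusted p under 0.05 there were 0 of 17 promoters, 4 of 32 bodies and 5 of 85 windows, beside 5.76%, 10.5% and 6.8% of all. The largest difference of a promoter was -3.82 points at the shared promoter of Col4a3 and Col4a4 (adjusted p = 0.932), that of a body -5.06 points at Col9a1 (0.497) and that of a window -7.26 points at a window of Col27a1 (0.558). Nor was any collagen feature called for a different knockout effect or a different Idh2 effect in MEP and GMP (quasi-binomial model and limma). The unadjusted p was under 0.05 at 0 promoters, 2 bodies and 7 windows for the knockout effect (4.91%, 9.61% and 6.22% of all). For the Idh2 effect it was so at 0, 2 and 5 (4.36%, 3.26% and 3.69% of all). No feature of the whole genome was called either (0.0%). Among the bodies the largest difference in the knockout effect was at Col7a1, where it was 11.6 points larger in MEP (adjusted p = 0.425). Among the windows it was at a window of Col2a1, 17.5 points (0.659), where the Idh2 effect also differed most, by 21.4 points (0.999).

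Genes that make, cut, bind or degrade collagen were followed in lists of 93 genes, of which 52 promoters and 53 bodies could be tested. The lists were chosen with earlier results of these data known. No alternative run, with a library left out or otherwise, was made on these genes. In the double mutant 11 of the 52 promoters were higher than in wild type MEP (11.4% of all promoters), 13 higher than in knockout MEP (12% of all) and 10 higher than in Idh2 mutant MEP (10.3% of all), and none was lower (0.61%, 0.407% and 1.17% of all). None was called in the knockout or in the Idh2 mutant (quasi-binomial model), where 0.0871% and 0.804% of all promoters were higher and 0.261% and 0.116% lower. At an unadjusted p under 0.05 there were 8 and 12 of 52, beside 13.5% and 17.2% of all promoters. Of 11 promoters of procollagen cleavage and crosslinking genes 4 rose against wild type MEP, beside 11.4% of all promoters. Tll1, a procollagen protease, held 35.5% ± 5.79 (SD, n = 3) against 1.83% ± 0.369 (n = 2). The others were the crosslinking lysyl oxidases Lox (36.5% against 8.65%), Loxl1 (12.7% against 0.900%) and Loxl2 (18.0% against 7.57%). Of 13 promoters of matrix partners 6 rose against wild type MEP, beside the same 11.4% of all promoters. Among them were Fbn2, a microfibril protein, at 44.6% ± 8.77 against 2.75% ± 0.948, and Nid1, which links basement membrane networks, at 27.5% against 4.53%. Matn3, a cartilage matrilin that binds type IX collagen, rose to 23.1% against 2.56%. Among 5 tested promoters of degradation genes Mmp16 rose from 1.32% to 36.2%, on 3 CpGs, the fewest allowed. No promoter of the 16 tested synthesis and folding genes was called in any of the 3 comparisons, and the median difference from wild type MEP there was 0.363 points. Of 7 receptor promoters 1 was called, that of the collagen receptor kinase Ddr1, against knockout MEP (10.5 points, adjusted p = 0.0108). Among bodies, Mmp9, a gelatinase of myeloid cells, rose from 30.2% ± 1.81 in wild type MEP to 53.4% ± 1.96 (adjusted p = 0.000651, quasi-binomial model). Pcolce, an enhancer of procollagen cleavage, fell from 85.2% ± 4.47 to 54.4% ± 11.1 (0.0129), on 3 CpGs. In all 7 of the 53 bodies were higher than in wild type MEP (Adamts2, Matn4, Mmp9, Nid1, Sparc, Thbs4 and Tnxb) and 2 lower (Matn1 and Pcolce), beside 12.9% of all bodies higher and 2.11% lower. Against knockout MEP 6 were higher and 2 lower (9.73% and 1.75% of all bodies), and against Idh2 mutant MEP 3 and 4 (9.1% and 4.7%). In Idh2 mutant cells 5 of the 53 bodies were higher than in wild type (Loxl4, Mrc2, Sparc, Thbs4 and Tnxb) and none was lower, beside 4.64% and 0.371% of all bodies.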

How the data were processed

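RRBS libraries of sorted progenitors were compared between 7 groups. The submitters' processing notes name BSMAP 2.74 as a tool and mm9 as the build. The authors deposited, per cytosine and strand, counts of methylated and of all reads, and the methylated fraction. The strands of each autosomal CpG were summed here, and a feature's level is the mean of its CpG levels. Each of 8 comparisons was fitted over all promoters, gene bodies or 1 kb windows with a quasi-binomial logistic model (Python 3.11.15, numpy 2.4.6, scipy 1.17.1), weighted by reads, with dispersion from 8 residual degrees of freedom squeezed towards its distribution over all features, and Benjamini-Hochberg adjustment over the class. The model was tested on simulated data. Libraries held 19306705 to 35204906 reads at cytosines, which limits the precision of low-coverage CpGs. Alternatives were limma 3.58.1, other minima of reads, CpGs and points, pooled reads, other start sites, compared groups only, a replicate block, summed title prefixes, and each library left out. Named were all collagen genes called in any comparison, the 3 largest differences per comparison and class, and promoters with at least 20% in wild type. Genes called only in windows beyond the 10 largest were summarised. The members and lists were chosen with earlier results of these data known.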

Additional observations from a re-analysis of the deposited data

How the results depend on the processing

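Counts of called collagen features are given in the order knockout against wild type, Idh2 mutant against wild type, and double mutant against wild type, knockout and Idh2 mutant MEP. As reported they were 1, 0, 4, 5 and 3 promoters, 0, 1, 4, 2 and 5 bodies, and 1, 2, 14, 11 and 14 windows. With at least 25 points they were 0, 0, 0, 0 and 0 promoters, 0 bodies in each, and 0, 1, 2, 3 and 3 windows. With no minimum difference, 1 promoter was called in the Idh2 mutant and 9 and 5 against knockout and Idh2 mutant MEP, 1, 3, 7 and 10 bodies in knockout, Idh2 mutant and double mutant against wild type and Idh2 mutant MEP, and 2 and 4 windows in knockout and Idh2 mutant. With reads pooled over CpGs, promoters came to 1 in the Idh2 mutant and 8 and 7 against wild type and Idh2 mutant MEP, bodies to 1 in the knockout and 5 against knockout MEP, and windows to 0 in the knockout. With at least 5 CpGs, bodies came to 0 in the Idh2 mutant and 1 and 2 against knockout and Idh2 mutant MEP, and windows to 0, 0, 4, 6 and 5. With at least 20 reads, promoters came to 1 against wild type MEP, bodies to 1 and 2 in the knockout and Idh2 mutant and 4 and 2 against knockout and Idh2 mutant MEP, and windows to 0 in the Idh2 mutant and 5, 4 and 2 in the double mutant. Fitting only the compared groups gave 5 promoters against Idh2 mutant MEP, 0 bodies in the Idh2 mutant, and 3 and 1 windows in the knockout and Idh2 mutant. With limma the knockout had 0 promoters and 0 windows, the Idh2 mutant 0 bodies and 1 window, and 6 promoters were called against Idh2 mutant MEP. With libraries of 1 title prefix summed, 0 promoters were called in the knockout. Leaving out 1 library gave 0 to 1, 0, 2 to 5, 2 to 5 and 1 to 5 promoters, 0, 0 to 2, 4, 0 to 4 and 2 to 6 bodies, and 0 to 2, 1 to 2, 13 to 16, 7 to 15 and 6 to 13 windows. The causes were not tested, except that larger minima leave fewer features. Of 844 alternative values of the 67 called differences, 658 were still called, 186 were not and 0 reversed, and 8 of the 67 were called under every alternative run on them. These totals are partly fixed by the rules. Dropping the minimum difference keeps all 67 calls, and a minimum of 25 points keeps 9 and ends 58 by size alone. Features with too few CpGs left were not counted. A minimum of 20 reads thus kept 23 and ended 9, and a minimum of 5 CpGs kept 33.

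The labels share replicate numbers between groups but do not say that they pair samples. Libraries with the same title prefix deviated together in wild type and the Idh2 mutant (correlation 0.361 and 0.534) but not in the knockout (-0.0473). As the labels state no pairing, GMP and MEP libraries entered the fits as independent samples. Where they deviated together, p-values of knockout or Idh2 mutant against wild type over both cell types may be too small. Summed title prefixes were run for promoters and bodies only, so the windows of Col5a1, Col13a1 and Col23a1 called there lack that check. With the replicate block, 6 promoters were called against Idh2 mutant MEP and 2 windows in the knockout, and the Col19a1 window lost its calls (adjusted p = 0.0631 and 0.0527, quasi-binomial model). Groups of 2 or 3 libraries and CpGs with few reads limit what could be detected, and tested regions are those that RRBS covers.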
